A study of Homo sapiens with 8 samples.

Results

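The MCM helicase and replication licensing genes were MCM2, MCM3, MCM4, MCM5, MCM6, MCM7, CDC6, CDT1, GMNN and PCNA, 10 of the 23572 genes measured. They were chosen by name. A transcript belonged to one of them when a deposited transcript list gave it that gene name, and it was then followed by its accession through all 8 lists. Assembled spliced transcripts that shared its introns were added. MCM7 was found by its accessions, NM_005916 and NM_182776, because none of the 8 lists carried its symbol as a gene name; the other 9 genes were named in 1 to 7 lists each. Together the 10 genes held 18 reference transcripts and 23 assembled spliced transcripts.

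A cell licenses its replication origins in G1 by loading MCM2 to MCM7 onto DNA as an inactive ring helicase. The origin recognition complex marks the site, CDC6 and CDT1 bring the ring to it, and geminin, the product of GMNN, binds CDT1 from S phase on so that no origin is licensed again in the same cycle. PCNA is the sliding clamp that holds the polymerases on the template, and CDT1 bound to chromatin-loaded PCNA is marked for destruction. Transcription of these genes is known to depend on E2F factors and to peak around the G1/S transition.

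The cells were K562, a human erythroleukaemia line, carrying a transgene for the splicing factor SF3B1 that doxycycline switches on. The 4 groups were K700E_induced (SF3B1-K700E transgene, doxycycline), K700E_uninduced (the same transgene, no induction), WT_induced (wild-type SF3B1 transgene, doxycycline) and WT_uninduced (the same transgene, no induction), with 2 libraries each. Doxycycline was used at 1 ug/ml for 48 h, and all cells grew with 10% fetal serum. "Induced" names the treatment, since transgene RNA was not measured apart from the endogenous gene here, and nothing in the labels says how many clones stood behind a line or whether replicates came from separate cultures. The p-values therefore measure only the spread between these libraries, which may be technical and includes any difference between the 2 sequencing lanes of the replicates.

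The deposited unit was FPKM, fragments scaled to transcript length and library size, which allows levels to be compared between genes. A gene's level was the sum over its transcripts, scaled by library factors between 0.99 and 1.04. Read counts were not used here; the coverage that 1 FPKM stood for ran between 3.30 and 4.79 across libraries. All 12 markers fixed for K562 reached 1 FPKM, while MS4A1, COL3A1 and KRT5, markers of other lineages, were listed at 0 in all 8 libraries. A 0 in these lists need not mean that a gene was silent, since UBE2C, which dividing cells use in mitosis, was also listed at 0 in all 8. HBG1, a fetal globin gene, was the most abundant K562 marker (mean 2008 FPKM) and LMO2 the least (21.4 FPKM). Of the lymphoid markers 2 of 6 averaged 1 FPKM or more (CD3D 22.6 and CD79A 1.30 FPKM), with sums between 8.27 and 60.9 FPKM, and of the stromal and epithelial markers 2 of 7 (EPCAM 21.3 and COL1A1 3.79 FPKM), with sums between 8.86 and 41.01 FPKM. Among the 11367 genes with a mean of at least 1 FPKM, which all 10 genes reached, the limma test with Benjamini-Hochberg adjustment called between 0 and 5 genes in each of 7 comparisons.

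On hg19 MCM2 spans chr3:127317200-127341278 (+ strand, up to 16 exons), MCM3 chr6:52128812-52149679 (- strand), MCM5 chr22:35796116-35820495 (+ strand), MCM6 chr2:136597196-136634047 (- strand) and MCM7 chr7:99690404-99699427 (- strand, 15 exons). CDC6 spans chr17:38444146-38459413 (+ strand), CDT1 chr16:88870186-88875666 (+ strand), GMNN chr6:24775159-24786325 (+ strand) and PCNA chr20:5095599-5107268 (- strand). MCM7 overlaps the start of AP4M1 on the other strand by 298 nt and holds the microRNA genes MIR106B, MIR93 and MIR25, and these 4 genes were listed at 0 in all 8 libraries. PCNA contains the antisense RNA gene PCNA-AS1, 384 nt long on the other strand.

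Letters that resemble the E2F consensus were found in promoters of 6 of the 8 genes that could be searched. They are shown here because E2F control is what the genes are known to have in common. The RefSeq promoter table (GRCh38.p14) held 8 of the 10 genes; MCM4 and MCM5 had no entry. The letters TTTNNCGC were read on both strands in the 250 bases before a start site. They occurred in 6 of these 8 genes (MCM3, MCM6, MCM7, CDT1, GMNN and PCNA) and in 7.15% of all 27305 genes of the table. A gene could have several entries and counted when any of them matched. By entry, the letters occurred in 6 of 12 for these genes and in 5.92% of all 35116 entries. CCAAT occurred in 6 of the 8 genes and in 37% of all genes. In each line below the capitals mark the match to TTTNNCGC or to its reverse complement, and the strand is that of the gene, read 5′ to 3′.
MCM3: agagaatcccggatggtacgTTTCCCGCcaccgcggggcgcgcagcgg
MCM6: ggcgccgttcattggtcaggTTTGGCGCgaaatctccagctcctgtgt
MCM7: cggtcacgtggggggcgacgTTTCGCGCc
CDT1: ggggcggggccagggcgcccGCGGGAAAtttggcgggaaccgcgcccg
GMNN: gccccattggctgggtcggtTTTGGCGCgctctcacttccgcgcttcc
PCNA: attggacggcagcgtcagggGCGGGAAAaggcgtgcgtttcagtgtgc
These windows lie at chr6:52284889-52284936 for MCM3, chr2:135876506-135876553 for MCM6, chr7:100101398-100101426 for MCM7, chr16:88803734-88803781 for CDT1, chr6:24775313-24775360 for GMNN and chr20:5126654-5126701 for PCNA. The match ended 2 bases before the start site in MCM7, 28 in CDT1, 52 in PCNA, 73 in GMNN, 83 in MCM6 and 167 in MCM3. These distances are to the start site of the matching entry. MCM7, GMNN and PCNA also had entries without a match, at chr7:100100705-100101004 and chr7:100100480-100100779 for MCM7, chr6:24774687-24774986 for GMNN and chr20:5119909-5120208 for PCNA. Entries were not matched to the transcripts listed in these libraries. In MCM6 the match overlaps a match on the other strand (GCGCGAAA, ending 79 bases before the start), and the same pair of overlapping matches stands again farther upstream, from 141 to 152 bases before the start. A match describes the letters in this window and is not evidence that a factor binds there.

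All 10 genes were well expressed, and on the level summed over transcripts the top of their order of abundance was the same in every library. MCM7 was the most abundant, with a mean of 209.2 FPKM over the 8 libraries (higher than 97.2% of the genes tested), and CDT1 came second in all 8, averaging 122.7 FPKM. MCM5 averaged 80.1, PCNA 73.4, MCM3 67.1, MCM4 61.3 and MCM2 59.3 FPKM, and the ranks of these 5 genes changed from library to library. On reference transcripts alone, CDT1 was above MCM7 in 3 of the 8 libraries, with 108.1 against 97.8 FPKM in induced WT replicate 1, 91.3 against 84.4 FPKM in uninduced WT replicate 1 and 168.3 against 42.3 FPKM in uninduced WT replicate 2. On the summed level GMNN averaged 45.4 and MCM6 40.02 FPKM. CDC6 was the lowest of the 10 in 7 of 8 libraries, with a mean of 17.9 FPKM, and still stood above 63.7% of genes. The spread between replicates within groups was an SD between 0.24 (MCM4) and 0.69 (GMNN) on the log2 scale, against a median of 0.72 over all genes tested. In every group replicate 2 was above replicate 1 for MCM2, MCM6, CDT1 and PCNA (4 of 10, against 6.12% of all genes). The authors' interval for the leading reference transcript of each gene had a half-width between 1.98% and 10.8% of the value, well inside the spread between replicates.

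**Figure D1:**
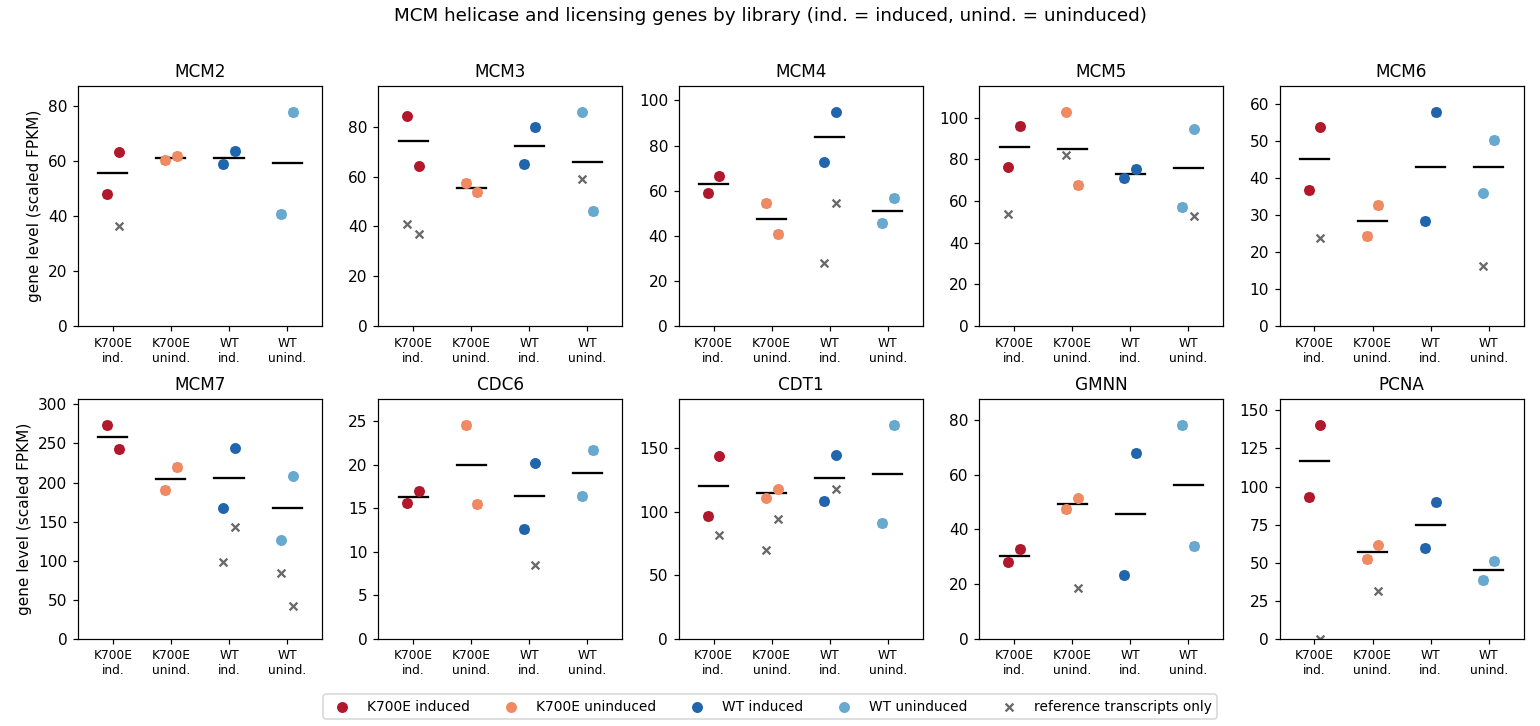
Levels of the 10 genes (y axis, scaled FPKM) in each of the 8 libraries, grouped on the x axis as induced K700E, uninduced K700E, induced WT and uninduced WT; dots are libraries, black lines are group means of 2 libraries, and grey crosses show the reference transcripts alone where assembled transcripts added to the level. PCNA lies higher in each induced group than in its uninduced group, the 4 induced MCM4 dots lie above the 4 uninduced ones, and GMNN in both WT groups is widely spread.

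None of the 10 genes passed the limma test in any of the 7 comparisons. In the K700E line the test called 1 of 11367 genes on induction (0.0088%), and in the WT line it also called 1 (0.0088%). At an unadjusted p under 0.05, 1 of the 10 genes (PCNA) was past the line for induced against uninduced K700E, where 4.7% of all genes were, and 0 of the 10 for induced against uninduced WT, where 4.3% were. By the plain order of the libraries, both induced K700E values lay above both uninduced K700E values for 5 of the 10 genes (MCM3, MCM4, MCM6, MCM7 and PCNA), as they did for 16.1% of all genes tested, and below them for GMNN, as for 17.8% of all genes. Both induced WT values lay above both uninduced WT values for MCM4 and PCNA (2 of 10, against 15.1% of all genes), and none of the 10 genes lay wholly below (14.1% of all genes). The median log2 fold change of the 10 genes was 0.19 on K700E induction, with 7 of 10 above 0, beside a median of -0.01 over all genes with 48.4% above 0. On WT induction it was 0.06, with 6 of 10 above 0, beside 0.01 over all genes with 50.3% above 0. Depth moved with these orders in the K700E line only, and the sum of the lymphoid marker list differed with induction in both lines. The sums of the K562 markers and of the stromal and epithelial markers overlapped between induced and uninduced libraries in both lines. The coverage behind 1 FPKM was 4.47 and 3.95 in induced K700E libraries, 3.86 and 3.64 in uninduced K700E libraries, 4.79 and 3.30 in induced WT libraries, and 4.56 and 3.71 in uninduced WT libraries, so that it was higher in induced than in uninduced K700E libraries and overlapped in the WT line. The 6 lymphoid markers summed to 9.91 and 10.3 FPKM in induced K700E libraries, 60.9 and 22.0 FPKM in uninduced K700E libraries, 23.01 and 8.27 FPKM in induced WT libraries, and 25.5 and 38.1 FPKM in uninduced WT libraries, lower in the induced libraries of both lines, with MS4A1 at 0 throughout. CD3D made up most of that sum in every library but induced K700E replicate 1, where CD79A had 6.07 FPKM. CD3D had 3.82 and 10.3 FPKM in induced K700E libraries, 57.5 and 22.0 FPKM in uninduced K700E libraries, 21.4 and 7.23 FPKM in induced WT libraries, and 22.1 and 36.8 FPKM in uninduced WT libraries. CD79A, the other lymphoid marker high enough to test, had fold changes in the opposite direction, of 0.38 (SE 1.64) on K700E induction and 0.77 (SE 1.64) on WT induction. The part of depth and of these markers in the results was not tested. These are bulk libraries, in which more cells of one cycle phase and more RNA per cell cannot be told apart.

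**Figure D2:**
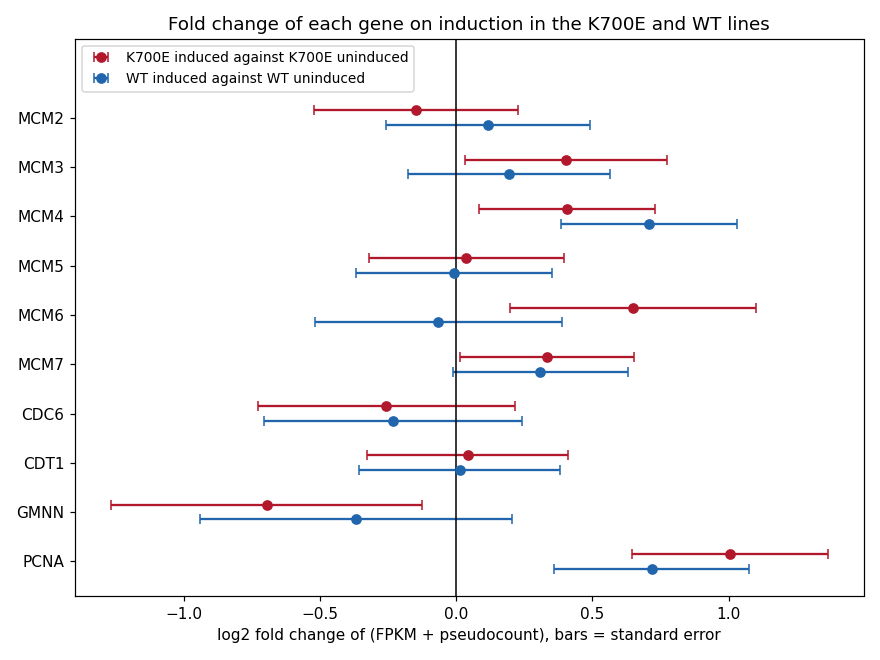
Log2 fold change of FPKM plus a pseudocount (x axis) for each gene (rows), with red points for induced against uninduced K700E and blue points for induced against uninduced WT; bars are standard errors from the limma fit. PCNA has the highest value in both lines (1.01 in K700E and 0.72 in WT) and GMNN the lowest (-0.70 in K700E and -0.37 in WT), and the bars of MCM2, MCM5, CDC6 and CDT1 cross 0 in both lines.

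Of the helicase subunits, MCM4 was the one whose induced libraries all stood apart from the uninduced ones. MCM4 had 58.8 and 66.7 FPKM in induced K700E libraries, 54.6 and 40.6 FPKM in uninduced K700E libraries, 72.8 and 94.9 FPKM in induced WT libraries, and 45.5 and 56.5 FPKM in uninduced WT libraries. The 4 induced values were all above the 4 uninduced values, which held for MCM4 alone of the 10 genes and for 1.23% of all genes tested. Its log2 fold change was 0.41 (SE 0.32, 95% interval -0.34 to 1.15) on K700E induction and 0.71 (SE 0.32, 95% interval -0.04 to 1.45) on WT induction, and their difference was -0.30 (SE 0.46). The test of that difference called 2 genes (0.0176%), none of them among the 10. Averaged over both lines it was 0.56 (SE 0.23), with a limma p of 0.0405 before and 0.958 after adjustment over all genes, and on reference transcripts alone it was 0.017 (SE 0.30). Over both lines 2 genes were called (0.0176%), none of them among the 10, and at an unadjusted p under 0.05 there were 2 of the 10 (MCM4 and PCNA) beside 4.59% of all genes.

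The WT values of MCM4 differed with the treatment of assembled transcripts. Assembled transcripts held 61.7% of MCM4 in induced WT replicate 1 and 42.5% in replicate 2, and none in the other 6 libraries. On the reference transcripts alone, MCM4 had 27.9 and 54.6 FPKM in induced WT libraries against 45.5 and 56.5 FPKM in uninduced WT libraries, and the WT fold change was -0.37. When each transcript was instead weighted by its length relative to the gene's longest transcript, so that a short fragment no longer counted in full, MCM4 had 60.8 and 67.5 in induced WT libraries and 44.4 and 55.2 in uninduced WT libraries, and the 4 induced libraries were again above the 4 uninduced ones. This length-weighted measure was chosen after the data had been seen.

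MCM7, like MCM4 a subunit of the ring that unwinds DNA, had 273.8 and 242.5 FPKM in induced K700E libraries, 190.2 and 220 FPKM in uninduced K700E libraries, 167.1 and 243.9 FPKM in induced WT libraries, and 127 and 208.9 FPKM in uninduced WT libraries. Its groups did not overlap in the K700E line and overlapped in the WT line. The replicate numbers were not taken to pair the samples, so an order by number only describes the libraries. Within the same line and number MCM7 was higher in the induced library in all 4 combinations, as were MCM4 and PCNA (3 of 10 genes, against 6.25% of all genes). On the length-weighted measure MCM4 and PCNA alone kept all 4 (2 of 10, against 6.35%), and MCM7 kept 3 of 4. The fold changes were 0.33 (SE 0.32, 95% interval -0.40 to 1.07) on K700E induction and 0.31 (SE 0.32, 95% interval -0.43 to 1.05) on WT induction, and 0.32 (SE 0.23, limma adjusted p = 0.958) over both.

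MCM6, the scarcest subunit in 7 of 8 libraries, had 36.7 and 53.9 FPKM in induced K700E libraries, 24.3 and 32.7 FPKM in uninduced K700E libraries, 28.4 and 57.9 FPKM in induced WT libraries, and 35.9 and 50.2 FPKM in uninduced WT libraries. The K700E groups did not overlap and the WT groups did. The log2 fold changes were 0.65 (SE 0.45) on K700E induction and -0.07 (SE 0.45) on WT induction, and the difference between the lines, 0.71 (SE 0.64, 95% interval -0.76 to 2.19), did not pass (limma adjusted p = 0.999). Leaving out 1 library at a time moved this difference between 0.21 (without induced WT replicate 1) and 1.22 (without induced WT replicate 2). In induced K700E replicate 2 an assembled 5-intron transcript of 1177 nt held 55.7% of MCM6, and the K700E fold change was 0.30 with length weighting (a measure explained under MCM4) and 0.07 on reference transcripts alone.

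The remaining subunits showed no separation that both lines shared. MCM3 had 84.4 and 64.1 FPKM in induced K700E libraries, 57.4 and 53.8 FPKM in uninduced K700E libraries, 65.1 and 79.8 FPKM in induced WT libraries, and 86.0 and 46.1 FPKM in uninduced WT libraries; its fold changes were 0.40 (SE 0.37) on K700E induction and 0.19 (SE 0.37) on WT induction. MCM3's K700E value rested on assembled transcripts, which held 51.4% and 42.1% of the gene in the induced K700E libraries, and on reference transcripts alone the fold change was -0.50. MCM2 had 48.1 and 63.4 FPKM in induced K700E libraries, 60.4 and 61.9 FPKM in uninduced K700E libraries, 58.7 and 63.6 FPKM in induced WT libraries, and 40.8 and 77.7 FPKM in uninduced WT libraries. MCM5 had 76.1 and 96.2 FPKM in induced K700E libraries, 102.7 and 67.6 FPKM in uninduced K700E libraries, 71.1 and 75.3 FPKM in induced WT libraries, and 57.1 and 94.6 FPKM in uninduced WT libraries. Within each line the induced and uninduced values of both genes overlapped. Their K700E fold changes were -0.15 (SE 0.37, 95% interval -1.01 to 0.72) for MCM2 and 0.04 (SE 0.36, 95% interval -0.79 to 0.87) for MCM5, and their WT fold changes were 0.12 (SE 0.37) for MCM2 and -0.01 (SE 0.36) for MCM5.

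The helicase ring holds 1 copy of each subunit, but their transcripts were not equal in number. MCM7 was the most abundant subunit in all 8 libraries and made up 47.4% and 41.3% of the summed MCM2 to MCM7 FPKM in induced K700E libraries, 38.8% and 46.2% in uninduced K700E libraries, 36.1% and 39.6% in induced WT libraries, and 32.4% and 39.1% in uninduced WT libraries. MCM6 made up between 4.96% and 9.41%. MCM7 stood between 2.39 and 4.50 times over the mean of the other 5 subunits, whereas the highest and the lowest of those 5 differed by 1.64 to 4.23 times. The sum over the 6 subunits was 577.9 and 586.8 FPKM in induced K700E libraries, 489.6 and 476.6 FPKM in uninduced K700E libraries, 463.2 and 615.4 FPKM in induced WT libraries, and 392.4 and 534.1 FPKM in uninduced WT libraries. The K700E groups did not overlap in this sum and the WT groups did. Shares moved with the treatment of assembled transcripts: on reference transcripts alone the MCM7 share was 53.5% and 48.2% in induced K700E libraries but 12.98% in uninduced WT replicate 2, where MCM7 was then below the mean of the other subunits (ratio 0.75).

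**Figure D3:**
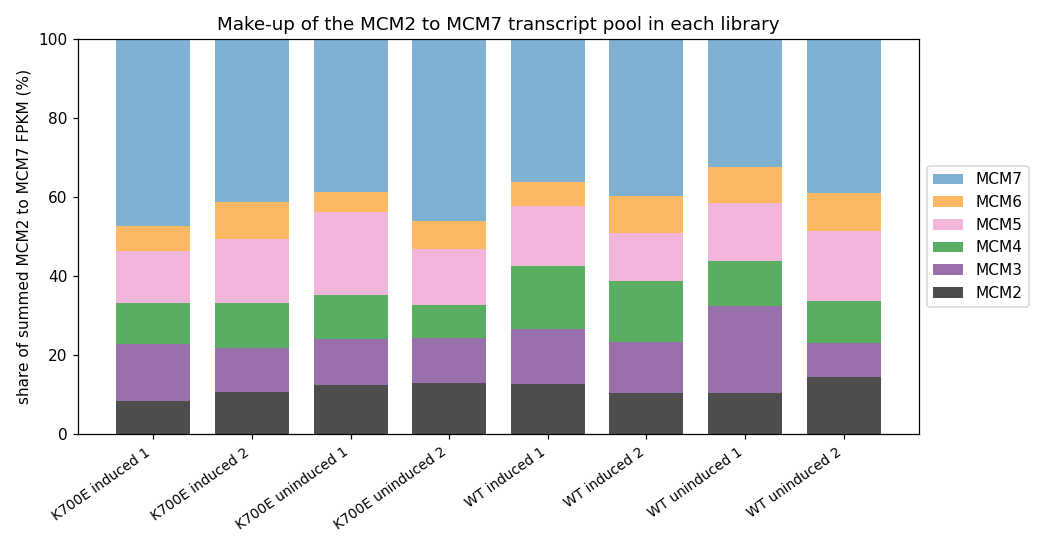
Share of each subunit in the summed MCM2 to MCM7 FPKM (y axis, percent) in each library (x axis), stacked from MCM2 at the bottom to MCM7 at the top. MCM7 fills 32.4% to 47.4% of every bar and MCM6 between 4.96% and 9.41%.

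Of the loading factors, CDT1 was among the most abundant of the 10 genes and CDC6 the least, and the groups of both overlapped within each line. CDT1, which delivers the MCM ring to the origin, had 96.6 and 143.8 FPKM in induced K700E libraries, 110.6 and 118.2 FPKM in uninduced K700E libraries, 108.1 and 144.6 FPKM in induced WT libraries, and 91.3 and 168.3 FPKM in uninduced WT libraries. The uninduced values lay inside the induced range in the K700E line and the induced values inside the uninduced range in the WT line. Its fold changes were 0.04 (SE 0.37, 95% interval -0.81 to 0.89) on K700E induction and 0.01 (SE 0.37, 95% interval -0.84 to 0.86) on WT induction. CDC6, the ATPase that works with CDT1, had 15.5 and 17.0 FPKM in induced K700E libraries, 24.6 and 15.4 FPKM in uninduced K700E libraries, 12.6 and 20.2 FPKM in induced WT libraries, and 16.4 and 21.6 FPKM in uninduced WT libraries. Its fold changes were -0.26 (SE 0.47) on K700E induction and -0.23 (SE 0.47) on WT induction. In FPKM, CDC6 stood at 0.117 to 0.222 of CDT1.

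GMNN, the gene of the CDT1 inhibitor geminin, had the opposite order to most subunits in the K700E line and the widest spread between replicates of the 10 genes. It had 28.0 and 32.8 FPKM in induced K700E libraries, 47.4 and 51.5 FPKM in uninduced K700E libraries, 23.4 and 67.9 FPKM in induced WT libraries, and 78.3 and 34.0 FPKM in uninduced WT libraries. The K700E groups did not overlap, while the WT replicates differed by more than 2-fold within each group. The fold changes were -0.70 (SE 0.57, 95% interval -2.01 to 0.62) on K700E induction and -0.37 (SE 0.57, 95% interval -1.68 to 0.95) on WT induction, and -0.53 (SE 0.40, limma adjusted p = 0.958) over both. In uninduced K700E replicate 2 an assembled transcript of 706 nt held 64.0% of GMNN, and without assembled transcripts the K700E fold change was 0.03. CDT1 exceeded GMNN in all 8 libraries, by 3.45 and 4.38 times in induced K700E libraries, 2.33 and 2.30 times in uninduced K700E libraries, 4.62 and 2.13 times in induced WT libraries, and 1.17 and 4.95 times in uninduced WT libraries. The K700E ratios did not overlap between groups, whereas the WT ratios did. On reference transcripts alone the K700E ratios overlapped too, at 3.45 and 2.48 in induced libraries and 1.47 and 5.10 in uninduced libraries.

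PCNA had the largest fold change of the 10 genes on induction in both lines. It had 93.3 and 140.5 FPKM in induced K700E libraries, 52.2 and 61.8 FPKM in uninduced K700E libraries, 59.7 and 90.0 FPKM in induced WT libraries, and 38.5 and 51.2 FPKM in uninduced WT libraries. Induced and uninduced values did not overlap within either line, which among the 10 genes held for PCNA and MCM4 and among all genes tested for 2.59%. PCNA averaged 116.9 ± 33.3 FPKM in induced K700E libraries and 57.0 ± 6.75 FPKM in uninduced K700E libraries (SD, n = 2 each). The fold change was 1.01 (SE 0.36, 95% interval 0.18 to 1.83) in the K700E line, with a limma p of 0.0228 before and 0.98 after adjustment, which placed PCNA at rank 253 of 11367 genes. In the WT line it was 0.72 (SE 0.36, 95% interval -0.11 to 1.54), with a limma adjusted p of 0.997. Over both lines it was 0.86 (SE 0.25, 95% interval 0.28 to 1.44), with a limma p of 0.00929 before and 0.958 after adjustment (rank 89). The difference between the lines was 0.29 (SE 0.51, 95% interval -0.88 to 1.46) and did not pass.

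The K700E values of PCNA included assembled transcripts, and the WT values did not. In induced K700E replicate 2 both PCNA reference transcripts were listed at 0 and the whole level belonged to an assembled transcript of 1073 nt with 4 introns. In uninduced K700E replicate 2 another assembled transcript, of 704 nt with 2 introns, held 48.8% of PCNA. Reference transcripts alone therefore gave 93.3 and 0 FPKM in induced K700E libraries against 52.2 and 31.6 FPKM in uninduced K700E libraries, and left the WT values as they were. With length weighting PCNA had 90.9 and 111.2 in induced K700E libraries, 51.2 and 46.4 in uninduced K700E libraries, 58.1 and 87.6 in induced WT libraries, and 37.5 and 49.9 in uninduced WT libraries. On that measure the 4 induced libraries all lay above the 4 uninduced ones, as for MCM4 and for 1.3% of all genes. The antisense gene PCNA-AS1, whose 384 nt lie within PCNA, had 123.4 and 148.4 FPKM in induced K700E libraries, 185.5 and 225.1 FPKM in uninduced K700E libraries, 336.8 and 198.8 FPKM in induced WT libraries, and 247.3 and 333.6 FPKM in uninduced WT libraries. It was lower in induced than in uninduced K700E libraries, the opposite order to PCNA. The labels do not say that the libraries kept the strand, so reads of the 2 genes in the shared stretch may not have been told apart, and their part in the result was not tested.

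Between the lines none of the 10 genes passed the test. Among the induced libraries, the test called 3 genes (0.0264%), none of them among the 10. On the summed level both induced K700E values lay above both induced WT values for PCNA and MCM5 (2 of 10, against 16.3% of all genes) and below them for MCM4 (1 of 10, against 16.6%). With length weighting these groups overlapped for MCM5 and MCM4 but not for PCNA. On reference transcripts alone PCNA and MCM5 overlapped. MCM4 then had the reverse order, with 58.8 and 66.7 FPKM in induced K700E libraries against 27.9 and 54.6 FPKM in induced WT libraries. The fold change of induced K700E over induced WT was 0.64 (SE 0.36, 95% interval -0.19 to 1.46) for PCNA, 0.35 (SE 0.32) for MCM7, 0.22 (SE 0.36) for MCM5 and -0.40 (SE 0.32, 95% interval -1.15 to 0.34) for MCM4. The MCM7 value ran between 0.079 and 0.62 on leaving out 1 library at a time (lowest without induced WT replicate 1 and highest without induced WT replicate 2) and was 1.121 on reference transcripts alone. Among the uninduced libraries the test called 0 genes (0%), while 4.64% of genes had an unadjusted limma p under 0.05. Both uninduced K700E values lay above both uninduced WT values for PCNA (16.9% of all genes), with a fold change of 0.35 (SE 0.36), and below them for MCM6 (15.7% of all genes), with a fold change of -0.58 (SE 0.45) that was -0.027 (SE 0.64) on reference transcripts alone. On the summed level PCNA was thus higher in the K700E line in both states. Averaged over them its fold change was 0.50 (SE 0.25, limma adjusted p = 0.87), where 5 genes (0.044%) were called. With length weighting the uninduced PCNA values overlapped, at 51.2 and 46.4 in K700E libraries and 37.5 and 49.9 in WT libraries. On reference transcripts alone the PCNA fold change was -0.13 between uninduced lines and -1.78 over both states. None of the 10 genes had all 4 K700E libraries above (1.8% of all genes) or below (1.88%) all 4 WT libraries.

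The transcript forms listed for MCM7 differed between the libraries of the K700E and WT lines. In all 4 K700E libraries the reference transcript NM_005916 held 100% of MCM7. In the WT line assembled forms held 41.5% and 41.4% in induced libraries and 33.6% and 79.8% in uninduced libraries, and the second reference transcript, NM_182776, was listed at 0 in all 8 libraries. One assembled form of 2839 nt with 14 introns appeared in induced WT replicate 1 at 69.5 FPKM and in uninduced WT replicate 2 at 168.7 FPKM, and it begins at the upstream end of NM_182776, base 99698380. The other assembled forms, of 1597 nt and 2292 nt, appeared in 1 library each. The log2 ratio of NM_005916 to the rest of the gene was higher by 8.54 (SE 2.22) in induced K700E than in induced WT libraries (limma p of 0.00336 before and 0.873 after adjustment) and by 9.20 (SE 2.22) in uninduced K700E than in uninduced WT libraries (limma p of 0.00209 before and 0.818 after adjustment), over 24609 forms of 7603 genes. Neither passed, and no form of any gene was called in the 5 comparisons of forms (0%). The share of all forms that separated the 4 K700E from the 4 WT libraries in this way was not counted. The size of such a ratio against forms listed at 0 depends on the pseudocount.

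**Figure D4:**
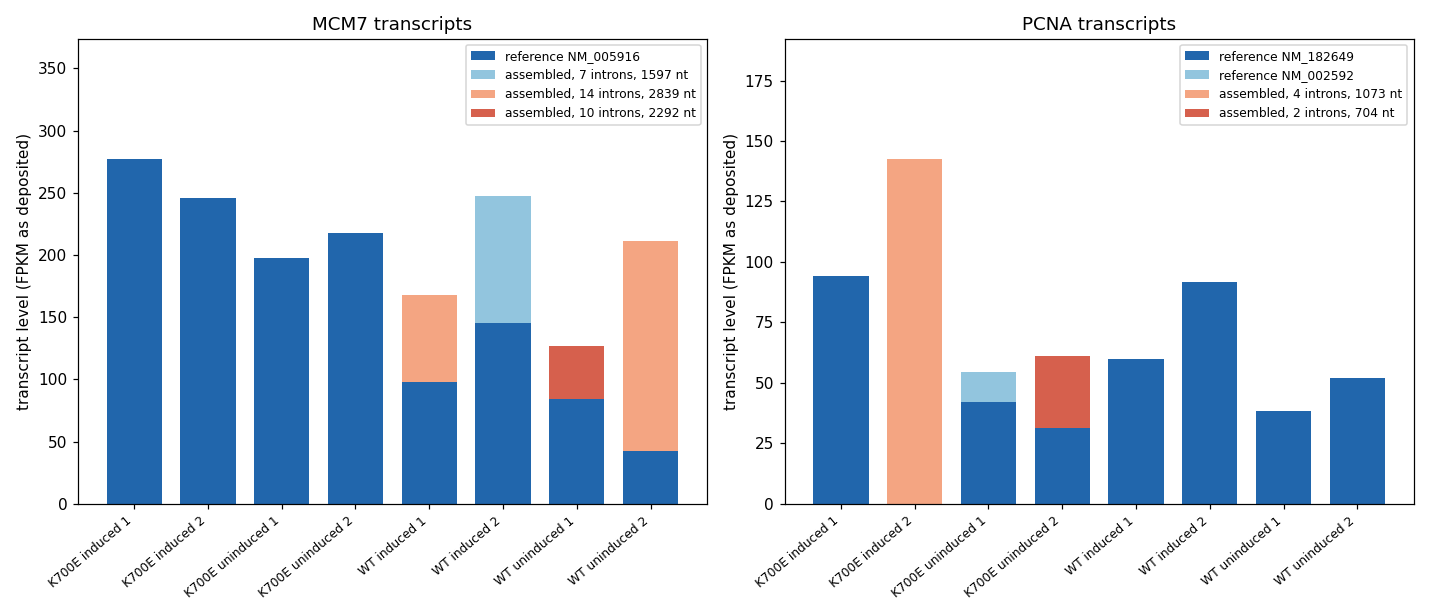
Level of each MCM7 transcript (left) and each PCNA transcript (right) in FPKM as deposited (y axis), stacked by library (x axis), with reference transcripts named by accession and assembled ones by their introns and length; forms listed at 0 in all libraries are left out. All 4 K700E bars of MCM7 are the reference transcript NM_005916 alone and all 4 WT bars have an assembled part, and the PCNA bar of induced K700E replicate 2 is an assembled transcript alone.

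Across the 10 genes the lists held 39 transcript forms, 18 of them reference forms and 21 assembled. Of the reference forms, 5 were listed at 0 in every library. Of the assembled forms, 19 appeared in 1 library and 2 in 2 libraries, and all but 1 of them used only introns known for the gene. The exception was in MCM5, in induced K700E replicate 1. It joined the known donor to an acceptor 33 nt upstream of the annotated one, so that the intron ran over chr22:35817454-35819173 (hg19, 1720 nt). The form had 22.7 FPKM, 29.5% of MCM5 in that library, and was not listed in the other induced K700E library or in any of the 6 other libraries. As background, SF3B1-K700E is known for the use of cryptic acceptors upstream of annotated ones; a form in 1 library has no replicate check. In CDT1 a form of induced WT replicate 2 at 26.8 FPKM kept 1 known intron unspliced. The other assembled CDT1 forms used only known introns and were shorter than the reference transcript of 2675 nt, at 2616, 802 and 1534 nt, each in 1 library.

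The levels of the 10 genes varied together only in part. Over the 8 libraries the median correlation among the 45 pairs of genes was 0.28, and 33 pairs were above 0. MCM6 was the most like the other members (r = 0.70 to their mean) and GMNN the least (r = -0.18). Among 3567 other genes, those nearest to the mean pattern of MCM2 to MCM7 were LAMTOR4 (r = 0.92), MYL4 (r = 0.91), ZC3H7B (r = 0.89), NARF (r = 0.89) and CBX1 (r = 0.89), over the same 8 libraries. LAMTOR4, for example, had 62.8 and 138.4 FPKM in induced K700E libraries, 38.7 and 20.6 FPKM in uninduced K700E libraries, 47.8 and 102.6 FPKM in induced WT libraries, and 20.1 and 110.7 FPKM in uninduced WT libraries. All genes of a library share its depth and preparation, so these correlations only describe the 8 libraries.

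The rest of the replication pathway was measured in 9 lists, and no gene in them passed the test in any of the 7 comparisons. The origin recognition complex, which marks origins for licensing, had all 6 of its genes tested. On K700E induction 4 of the 6 were above 0 with a median log2 fold change of 0.34, and on WT induction 3 of the 6 with a median of -0.20. ORC1, the regulated ATPase of the complex and its most abundant gene, had 41.8 and 43.4 FPKM in induced K700E libraries against 28.6 and 39.5 FPKM in uninduced K700E libraries, and 33.4 and 30.2 FPKM in induced WT libraries against 21.8 and 45.6 FPKM in uninduced WT libraries. ORC2, the least abundant, had fold changes of 0.80 (SE 0.61) on K700E induction and -0.42 (SE 0.61) on WT induction. ORC6 ran from 0.87 FPKM in induced WT replicate 1 to 66.99 FPKM in uninduced K700E replicate 2.

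Of the other MCM family genes and MCM partners, 5 of 6 were high enough to test, and 5 were above 0 on K700E induction (median 0.39) and 4 on WT induction (median 0.33). MCM10, which helps to activate the loaded helicase, had 25.9 and 30.4 FPKM in induced K700E libraries, 15.8 and 11.6 FPKM in uninduced K700E libraries, 10.8 and 22.4 FPKM in induced WT libraries, and 17.2 and 7.92 FPKM in uninduced WT libraries. Its K700E groups did not overlap, with a fold change of 1.02 (SE 0.56, limma adjusted p = 1). MCMBP, an MCM-binding protein, had fold changes of 0.39 (SE 0.63) on K700E induction and -0.46 (SE 0.63) on WT induction. MCM3AP, the most abundant of the list at 32.1 FPKM, had 0.14 (SE 0.37) on K700E induction and 0.03 (SE 0.37) on WT induction. MCM9, the least abundant of those tested at 2.76 FPKM, had 0.25 (SE 0.89) on K700E induction and 0.59 (SE 0.89) on WT induction.

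For helicase activation, 8 of 14 genes were above 0 on each induction, with medians of 0.10 in the K700E line and 0.33 in the WT line. CDC45, which binds the MCM ring to form the active helicase, was abundant, with 142.9 and 160.3 FPKM in induced K700E libraries, 185.3 and 199.6 FPKM in uninduced K700E libraries, 155.3 and 167.6 FPKM in induced WT libraries, and 162.0 and 109.2 FPKM in uninduced WT libraries. It had the opposite order to MCM4, MCM6 and MCM7 in the K700E line, with a fold change of -0.34 (SE 0.27). CDC7, the kinase that fires origins, had -0.34 (SE 0.67) on K700E induction and -1.06 (SE 0.67) on WT induction, and its activating partner DBF4 had -1.42 (SE 0.70) on K700E induction and -0.13 (SE 0.70) on WT induction. MTBP, the least abundant, was listed at 0 in induced WT replicate 1 and reached 15.7 FPKM in uninduced K700E replicate 2.

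Among the polymerases and clamp loaders that work with PCNA, 17 of 21 genes were above 0 on K700E induction (median 0.43) and 12 of 21 on WT induction (median 0.17). POLD2, a polymerase delta subunit and the most abundant, had fold changes of 0.04 (SE 0.31) on K700E induction and -0.41 (SE 0.31) on WT induction. DSCC1, of an alternative clamp loader and the least abundant, had 11.3 and 9.21 FPKM in induced K700E libraries, 3.11 and 7.85 FPKM in uninduced K700E libraries, 4.96 and 4.20 FPKM in induced WT libraries, and 2.51 and 0 FPKM in uninduced WT libraries. Of the genes of lagging strand synthesis, fork protection and chromatin assembly, 14 of 19 were above 0 on K700E induction (median 0.10) and 12 on WT induction (median 0.26). SSRP1, of the histone chaperone FACT and the most abundant, had 0.05 (SE 0.30) on K700E induction and -0.0025 (SE 0.30) on WT induction. RPA3, of the single-strand binding complex and the least abundant, had 0.10 (SE 0.82) on K700E induction and -0.59 (SE 0.82) on WT induction. The K700E fold changes in this list ran from -4.58 (SE 0.93, limma adjusted p = 0.899) for FEN1 to 2.62 (SE 0.93, limma adjusted p = 0.979) for RNASEH2B. FEN1 had 3.97 and 0 FPKM in induced K700E libraries and 33.7 and 36.8 FPKM in uninduced K700E libraries. The size of its fold change therefore depends on the pseudocount, and a listed 0 need not mean that the gene was silent.

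The genes that turn over CDT1, geminin and CDC6 proteins showed medians near 0. On K700E induction 7 of the 15 tested were above 0 (median -0.07) and on WT induction 8 (median 0.02). DTL, which recognises CDT1 on PCNA for destruction, had 28.9 and 25.6 FPKM in induced K700E libraries, 23.01 and 22.5 FPKM in uninduced K700E libraries, 24.7 and 29.1 FPKM in induced WT libraries, and 29.5 and 24.5 FPKM in uninduced WT libraries. DDB1, the adaptor of the same ubiquitin ligase, had fold changes of 0.16 (SE 0.33) on K700E induction and -0.17 (SE 0.33) on WT induction. USP37, the least abundant of those tested, had -0.58 (SE 0.79) on K700E induction and -0.25 (SE 0.79) on WT induction.

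Of the E2F and G1/S regulators, 15 of 25 were above 0 on K700E induction (median 0.13) and 10 of 25 on WT induction (median -0.10). E2F1, the transcription factor that the promoter letters recall, had 11.8 and 16.7 FPKM in induced K700E libraries, 8.92 and 13.2 FPKM in uninduced K700E libraries, 19.0 and 5.61 FPKM in induced WT libraries, and 13.6 and 8.51 FPKM in uninduced WT libraries, and its groups overlapped in both lines. The cyclin E genes had K700E fold changes of 0.87 (SE 0.62) for CCNE1 and 0.92 (SE 0.87) for CCNE2, and WT fold changes of 0.26 (SE 0.62) for CCNE1 and -0.14 (SE 0.87) for CCNE2. CCND3, the most abundant of the list, had -0.33 (SE 0.26) on K700E induction and -0.29 (SE 0.26) on WT induction.

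Other S phase genes and G2/M genes gave the cycle context of these values. Of the S phase genes, 11 of 23 were above 0 on K700E induction (median -0.01) and 10 of 23 on WT induction (median -0.05). TK1, thymidine kinase, had fold changes of -0.44 (SE 0.41) on K700E induction and -0.51 (SE 0.41) on WT induction, and BRIP1 had 0.04 (SE 0.93) on K700E induction and 2.26 (SE 0.93, limma adjusted p = 0.997) on WT induction. Of the G2/M genes, 21 of the 29 tested were above 0 on K700E induction (median 0.32) and 12 of 29 on WT induction (median -0.10). PLK1, a mitotic kinase, had -0.30 (SE 0.32) on K700E induction and -0.02 (SE 0.32) on WT induction, and KIF20B, a mitotic kinesin, had 0.14 (SE 0.69) on K700E induction and 1.56 (SE 0.69, limma adjusted p = 0.997) on WT induction.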

How the data were processed

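The authors deposited FPKM values per transcript, 1 list for each library. The submitters' processing notes name CASAVA, TopHat, Cufflinks and the build hg19 (versions not given in the sources used here). The labels' protocols describe rRNA removal by RNase H. Assembled spliced transcripts of at least 300 nt joined the gene that shared most of their introns. Of 40767 accessions, 33291 were named by the lists, 7137 by a gene name table and 262 by introns. Libraries were scaled by median ratios over 7582 genes. For genes averaging at least 1 FPKM, log2(FPKM + 0.5) entered a limma 3.58.1 fit (R 4.3.3) of all 8 libraries, and genes were called at an adjusted p of 0.05; fold changes on this scale understate those of low genes. The test was checked on simulated data. The transcript test compared each form (mean share 5% to 95%) with the rest of its gene. Replicates 1 and 2 of every group lay in sequencing lanes 1 and 2, per the lane codes of the deposited lists. Named genes were the 10 members, those most like them, the most and least abundant of the tested genes of each list, and 11 fixed genes. The members and lists were chosen with earlier results of these data known.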

Additional observations from a re-analysis of the deposited data

How the results depend on the processing

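None of the 35 fold changes given for the 10 genes passed the threshold under any of up to 17 alternatives, and 10 of them kept their sign under all, though not their size. Depth is known only as coverage per FPKM, so no counting limit could be given. On reference transcripts only, PCNA, whose reference transcripts were listed at 0 in induced K700E replicate 2, turned to -2.59 for K700E induction, -3.43 for induced K700E against induced WT, -0.13 for uninduced K700E against uninduced WT, -3.30 for the difference between inductions, -0.93 for induction over both lines and -1.78 for K700E against WT over both states. On the same transcripts MCM4 turned to -0.37 for WT induction, 0.67 for induced K700E against induced WT and 0.78 for the difference between inductions. For K700E induction MCM3 turned to -0.50, MCM5 to -0.0523 and GMNN to 0.0283. For WT induction MCM5 turned to 0.41, MCM6 to 0.49 and CDT1 to -0.13, MCM5 turned to -0.0264 for induced K700E against induced WT, and MCM6 to -0.42 for the difference between inductions. Other values on these transcripts kept their sign and moved by over 1.5 times. K700E induction was -0.54 for MCM2, 0.07 for MCM6 and 0.13 for CDT1, and WT induction was 0.46 for MCM3, 0.98 for MCM7 and -0.83 for CDC6. Induction over both lines was 0.017 for MCM4, 0.66 for MCM7 and -0.17 for GMNN. MCM7 was 1.121 between induced lines and 1.44 for the lines over both states, and MCM6 was -0.027 between uninduced lines. With length-weighted FPKM, CDT1 turned to -0.15 for K700E induction, MCM5 to 0.033 and MCM6 to 0.10 for WT induction, and MCM4 to 0.0403 for the difference between inductions. Without turning, K700E induction was 0.18 for MCM3, 0.30 for MCM6 and -0.39 for GMNN, WT induction was 0.31 for MCM3, 0.37 for MCM4 and -0.42 for CDC6, MCM4 was -0.066 between induced lines, PCNA 0.17 between uninduced lines and the MCM6 difference between inductions 0.21. The cause was not tested beyond the form levels given above.

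Leaving out 1 library at a time, K700E induction ranged from -0.34 to 0.0506 for MCM2, -0.26 to 0.34 for MCM5, -0.24 to 0.33 for CDT1, -0.58 to 0.0703 for CDC6, 0.21 to 0.60 for MCM3, 0.20 to 0.62 for MCM4, 0.38 to 0.92 for MCM6, 0.23 to 0.44 for MCM7, -0.81 to -0.58 for GMNN and 0.71 to 1.30 for PCNA. WT induction ranged from -0.34 to 0.58 for MCM2, -0.25 to 0.64 for MCM3, -0.37 to 0.35 for MCM5, -0.57 to 0.44 for MCM6, -0.0488 to 0.67 for MCM7, -0.43 to 0.45 for CDT1, -1.13 to 0.39 for GMNN, -0.56 to 0.10 for CDC6, 0.52 to 0.90 for MCM4 and 0.42 to 1.01 for PCNA. Induction over both lines ranged from 0.45 to 0.66 for MCM4, 0.14 to 0.50 for MCM7, -0.91 to -0.15 for GMNN and 0.71 to 1.01 for PCNA. Between induced lines the range was -0.60 to -0.21 for MCM4, 0.057 to 0.39 for MCM5, 0.079 to 0.62 for MCM7 and 0.35 to 0.93 for PCNA, and between uninduced lines -0.82 to -0.34 for MCM6 and 0.15 to 0.55 for PCNA. Over both states the lines ranged from 0.16 to 0.52 for MCM7 and 0.35 to 0.64 for PCNA. The difference between inductions ranged from -0.51 to -0.0877 for MCM4 and 0.21 to 1.22 for MCM6. The PCNA difference between inductions ranged from -0.0057 to 0.58. A group left with 1 library was assumed to vary like the others.

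The counts of genes called over all genes moved more. Leaving out 1 library gave 1 to 7 genes for K700E induction, 0 to 8 for WT induction, 3 to 11 between induced lines, 0 to 6 between uninduced lines, 0 to 3 for the difference between inductions, 0 to 3 for induction over both lines and 0 to 4 for the lines over both states. With no filter on low values, the counts in that order were 28, 13, 14, 24, 11, 12 and 20 of 15520 genes. On reference transcripts only they were 2 for K700E induction, 9 for WT induction, 5 between induced lines, 4 between uninduced lines, 1 for induction over both lines and 1 for the lines. K700E induction gave 2 genes with a pseudocount of 0.1 and 2 with length-weighted FPKM. Fitting only the compared groups gave 6 genes between induced lines. The lines over both states gave 2 genes with a pseudocount of 0.1, 2 with a filter at 5 FPKM and 2 with the replicate block. No transcript form was called under any alternative run.

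Same-numbered libraries did not deviate together from their group means (correlations between -0.03 and 0.08), so the numbers were not taken to pair the samples. With the replicate number as a block, the PCNA fold change stayed at 1.01 for K700E induction and no call on the 10 genes changed.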

Other observations

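Replicate 2 was above replicate 1 in all 4 groups for MCM2, MCM6, CDT1 and PCNA, 4 of the 10 genes, while 6.12% of all genes tested had that order. This contrast was chosen after seeing the data. The mean log2 difference of replicate 2 over replicate 1 was 0.62 (SE 0.25) for MCM6, 0.49 (SE 0.21) for CDT1, 0.46 (SE 0.21) for PCNA and 0.37 (SE 0.24) for MCM2, each higher in 4 of 4 groups. In limma with Benjamini-Hochberg adjustment over all genes each had an adjusted p of 0.898, and 0 of 11367 genes were called. MCM3 was higher in replicate 2 in 1 of 4 groups, with a difference of -0.27 (SE 0.26). Each group holds 1 library of each number, so the number cannot order the groups. Replicates 1 and 2 lay in sequencing lanes 1 and 2, so replicate and lane cannot be told apart in this contrast.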
